A study of Mus musculus with 2 samples.

Results

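The 56 genes described here encode proteins of the synaptic vesicle, the fusion machinery and the active zone. They were chosen by symbol from a list of presynaptic genes, and all 56 were found among the 55536 genes quantified. The RNA came from a layer of the hippocampus, as the labels put it, of female B6CASTF1/J mice, which are hybrids of the strains C57BL/6J and CAST/EiJ, at 36 days of age. Total RNA was sequenced from 2 libraries, biological replicates 1 and 2 of a single group with no treatment named, each made from 300 ng of RNA with ERCC spike-in RNAs added. The labels tie both samples to a common donor entry, so the spread given here is that between these samples and may not be that between mice. Every value below is therefore a level or a difference between the libraries, with no test between conditions.

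A nerve terminal stores transmitter in vesicles, docks and primes them at the active zone, and fuses them with the plasma membrane when calcium enters. Synapsins hold vesicles in a reserve, transporters fill them, and SNARE proteins pull the vesicle and the plasma membrane together. Several synaptotagmins sense calcium, complexins and tomosyns regulate the SNAREs, and NSF with its SNAP adaptors takes spent SNARE complexes apart. RIM, Munc13, ELKS, liprin, Bassoon and Piccolo proteins build the release site, and dynamin, synaptojanin and endophilin retrieve the membrane afterwards. In the hippocampus most of these terminals belong to glutamatergic pyramidal and granule neurons, with a minority from GABAergic interneurons.

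Summed expected counts were 32443497 in replicate 1 and 30125183 in replicate 2. Over 18246 genes the biological coefficient of variation between the libraries was 0.0898. All 8 pan-neuronal and all 7 excitatory neuron markers were detected, with list medians of 146 ± 15.8 TPM and 65.8 ± 9.67 TPM (SD, n = 2). The replicates stood apart in choroid plexus RNA. Its 9 markers summed to 26.7 TPM in replicate 1 and 1297 TPM in replicate 2, and Ttr alone went from 20.8 TPM to 1237 TPM.

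All 56 genes were present at 1 TPM or more in both libraries (TPM is a level scaled to RNA length and to the size of the library). Across the genome 14590 genes met that minimum. The median gene of the 56 stood at 78.0 TPM in replicate 1 and 74.5 TPM in replicate 2, or 76.3 ± 2.50 TPM. The median of the 12679 detected protein-coding genes was 14.7 ± 0.042 TPM, and 45 of the 56 lay above it. Of 77 related presynaptic genes left outside the set, 73 were detected, while Cplx4, Unc13d, Slc18a2 and Slc18a3 stayed under the minimum. The 56 were chosen with earlier results of these data known. Their full detection and high median may therefore follow from the choice, and are no test of presynaptic genes in general. Mean levels spanned 529-fold, with 22 genes at 100 TPM or more, 25 between 10 and 100 TPM, and 9 under 10 TPM. Of the 56 genes, 8 ranked among the 100 most abundant protein-coding RNAs by TPM and 26 among the first 1000. Together the 56 took 1.84% of all gene counts in replicate 1 and 1.75% in replicate 2. Their expected counts were whole numbers within 0.005 in both libraries, so no reads had been divided between them and another gene.

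**Figure D1:**
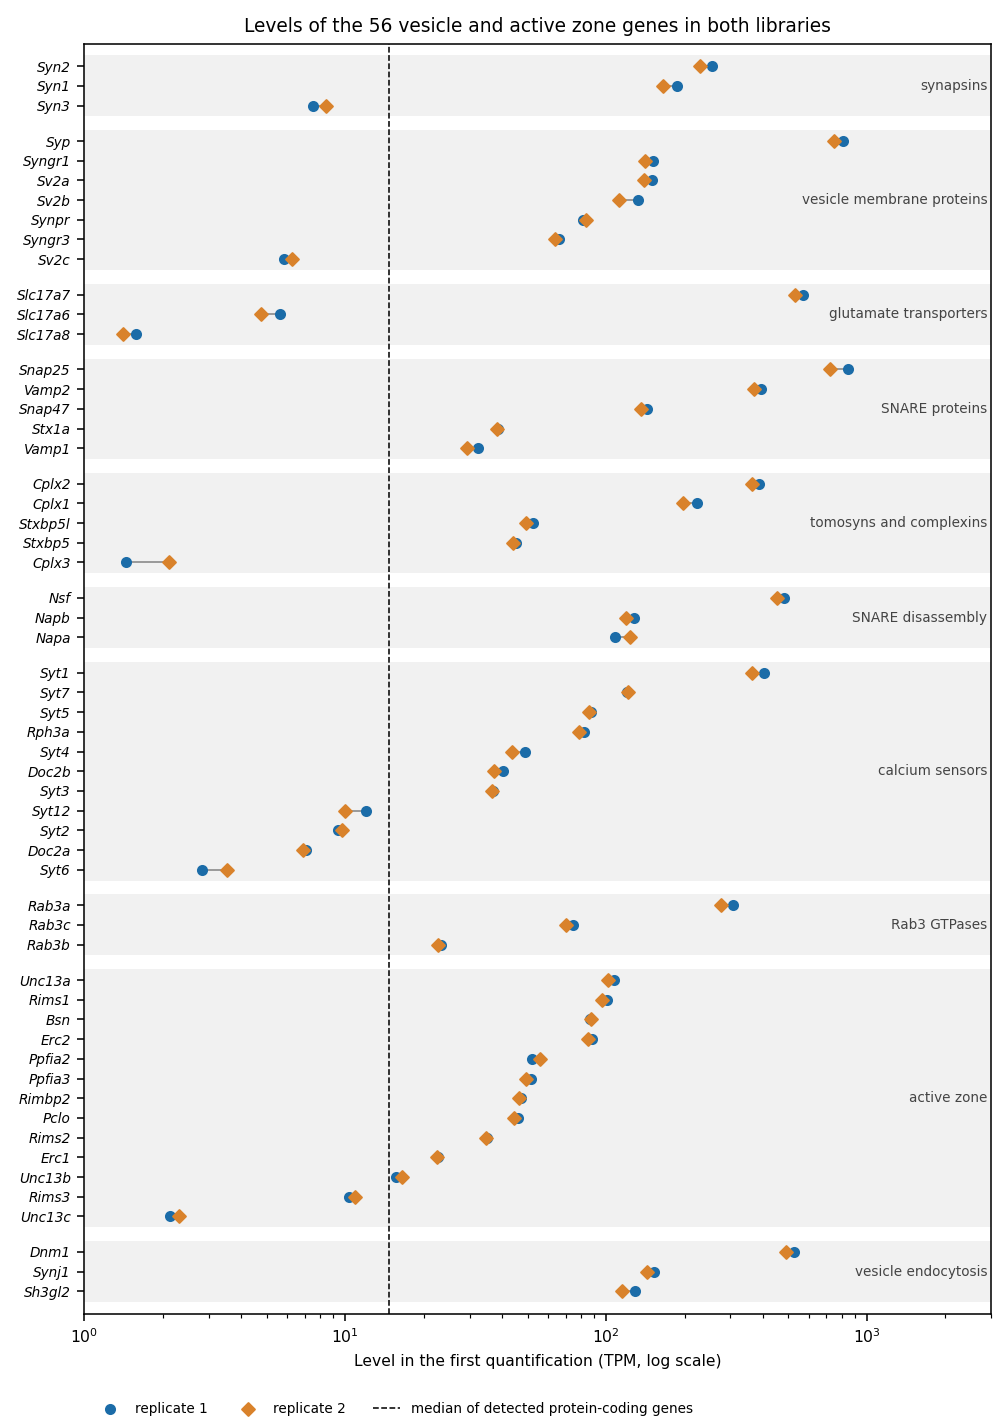
Level of each of the 56 genes in TPM (x axis, log scale) in replicate 1 (circles) and replicate 2 (diamonds), grouped by role and ordered by mean level within a role. The dashed line is the median of detected protein-coding genes, 14.7 TPM, and 11 genes have a mean at or below it.

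The synapsins are phosphoproteins that coat the cytosolic face of vesicles and tie them into clusters. Syn2 was the most abundant, at 254 TPM in replicate 1 and 230 TPM in replicate 2, and Syn1 followed at 188 and 165 TPM. The lowest value of Syn2 lay above the highest of Syn1. Syn3, a family member better known from developing neurons, had 7.52 and 8.46 TPM. Syn2 thus took 56.8% ± 0.27 of synapsin TPM, Syn1 41.4% ± 0.57 and Syn3 1.88% ± 0.30. Both major synapsins are spliced at their 3′ ends into a long a form and a short b form. For Syn1 the a form uses an acceptor site 38 bases upstream of that of the b form in the last exon, which changes the reading frame of the C terminus. The stretch is shown because its presence sets the 2 coding sequences apart (chrX:20861572-20861609, minus strand, mm10, coding exon).
Syn1 stretch kept with the upstream acceptor: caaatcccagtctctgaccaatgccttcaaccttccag
The a form took 47.3% of Syn1 TPM in replicate 1 and 55.7% in replicate 2 in the first of the 2 deposited quantifications. In the second, made from the same reads, it took 27.2% and 35.8%. The split between synapsin Ia and Ib therefore differed more between the quantifications than between the libraries. For Syn2 they gave like answers. Transcripts with the longer coding end, chiefly Syn2-201 (synapsin IIa), took 21.5% and 22.5% by the first estimate and 21.2% and 22.3% by the second. The rest lay on transcripts that end in an extended terminal exon, as synapsin IIb does. Not all of these are annotated as coding. Syn2-206, annotated as a processed transcript, had 39.9 and 19.1 TPM in the first quantification and a mean of 89.0 TPM in the second. The TPM scales of the quantifications differ. As a share of Syn2 TPM, processed transcripts took a mean of 12.2% in the first and 23.5% in the second.

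Vesicle membrane proteins span the vesicle but do not take part in fusion directly. Syp, the gene of synaptophysin (chrX:7638471-7653256, mm10), had 813 TPM in replicate 1 and 747 TPM in replicate 2 and ranked 29 among detected protein-coding genes. Its relative Synpr, synaptoporin, known from the mossy fibres of dentate granule neurons, had 81.4 and 83.4 TPM, so that Syp took 90.4% ± 0.67 of the TPM of the pair. Transcripts annotated as processed took 44.9% and 50.5% of Synpr TPM, and 37.7% and 38.8% in the second quantification. In counts Synpr was lower in replicate 2 (2784 against 3023 reads). The synaptogyrin gene Syngr1 had 146 ± 6.87 TPM and Syngr3 had 64.9 ± 1.32 TPM. SV2 proteins are transporter-like glycoproteins of all vesicles, and SV2A is the binding site of the drug levetiracetam. Sv2a had 151 and 139 TPM and Sv2b had 133 and 112 TPM, ranges that did not overlap. Sv2c, the form typical of the basal ganglia, was the lowest vesicle membrane gene at 5.82 and 6.25 TPM.

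Vesicular glutamate transporters load the transmitter. Slc17a7 (VGLUT1; chr7:45163949-45176142, mm10), the transporter of cortical and hippocampal principal neurons, had 568 TPM in replicate 1 and 529 TPM in replicate 2. Slc17a6 (VGLUT2), the transporter of thalamic and other subcortical neurons, had 5.64 and 4.77 TPM. Slc17a8 (VGLUT3), found in cholecystokinin interneurons and raphe neurons, had 1.58 and 1.40 TPM and was the lowest of all 56 genes by mean, although Cplx3 was lower in replicate 1. Slc17a7 thus took 98.8% ± 0.073 of transporter TPM, 105-fold more than Slc17a6 by mean. The second quantification gave the same share, 98.8%.

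SNARE proteins form the helical bundle that drives fusion. Snap25, the plasma membrane SNARE with a pair of helices, was the most abundant of the 56 genes. It had 851 TPM in replicate 1 and 725 TPM in replicate 2 (chr2:136713453-136782428, mm10), a range that overlapped that of Syp, so the order of the top pair is not fixed by these libraries. Vamp2, the synaptobrevin of forebrain vesicles, had 394 and 370 TPM. Its paralog Vamp1, prominent in hindbrain and spinal cord, was the lowest SNARE gene of the set at 32.2 and 29.2 TPM. Vamp2 took 92.6% ± 0.15 of synaptobrevin TPM. Snap47 had 140 ± 5.32 TPM and the plasma membrane syntaxin gene Stx1a had 38.3 ± 0.37 TPM. Among the related SNARE and docking genes outside the set, the synaptotagmin gene Syt11 had 202 ± 10.4 TPM.

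Snap25 carries a pair of mutually exclusive exons of 118 bases each, and the choice between them gives SNAP-25a, the form of early development, or SNAP-25b, the form of adult brain. They code for the region around the palmitoylated cysteines that anchor the protein. The exons are shown because a read must cover the bases that differ to tell the forms apart, and 31 of 118 bases do. Capitals mark the bases that differ from the paired exon. The upstream exon lies at chr2:136769743-136769860 and the downstream exon at chr2:136770057-136770174, both on the plus strand of mm10 and wholly coding.
Snap25 upstream exon: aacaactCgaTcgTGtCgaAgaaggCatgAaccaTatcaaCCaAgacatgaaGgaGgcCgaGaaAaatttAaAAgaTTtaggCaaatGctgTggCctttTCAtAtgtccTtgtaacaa
Snap25 downstream exon: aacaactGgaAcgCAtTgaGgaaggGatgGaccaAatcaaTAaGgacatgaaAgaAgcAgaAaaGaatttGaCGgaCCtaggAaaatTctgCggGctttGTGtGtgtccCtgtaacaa
The transcript with the downstream exon (SNAP-25b) stood at 764 TPM in replicate 1 and 632 TPM in replicate 2. That with the upstream exon (SNAP-25a) stood at 82.9 and 88.6 TPM. SNAP-25b thus made up 90.2% and 87.7% of the TPM of both forms, and in the second quantification 88.1% and 86.7%. In reads of the first quantification it took 95.3% and 94.0%. The downstream exon dominated in both libraries and both quantifications. Vamp1 also has a pair of 3′ ends, with the last intron spliced or retained. The spliced form took 82.5% and 78.8% of their TPM by the first estimate and 75.3% and 72.5% by the second.

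Complexins bind partly zipped SNARE complexes, and tomosyns occupy SNAREs in place of the vesicle SNARE. Cplx2 led with 387 TPM in replicate 1 and 363 TPM in replicate 2, and Cplx1 had 224 and 197 TPM. Cplx2 took 63.9% ± 0.97 of complexin TPM and Cplx1 35.8% ± 1.07. Cplx3, a complexin best known from the ribbon synapses of the retina, had 1.44 and 2.10 TPM, from 29 and 73 reads. The tomosyn genes Stxbp5l (52.6 and 49.2 TPM) and Stxbp5 (45.2 and 44.0 TPM) were close in level. Stxbp5 has a pair of neighbouring cassette exons that lengthen the linker region of the protein. They are shown because their joint use separates the long from the short tomosyn form. They lie at chr10:9784341-9784400 and chr10:9784188-9784235 on the minus strand of mm10, are wholly coding, and are 60 and 48 bases long.
Stxbp5 cassette exon A: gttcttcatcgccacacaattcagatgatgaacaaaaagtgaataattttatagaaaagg
Stxbp5 cassette exon B: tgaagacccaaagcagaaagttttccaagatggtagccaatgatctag
Transcripts with both exons took 36.4% and 35.2% of the TPM of both forms in the first quantification, and 34.6% and 33.6% by the second estimate. By TPM the short form was thus the larger part in both libraries and both quantifications. The order turned in reads, where the long form took 52.2% and 51.1% in the first quantification, and its transcript is longer (8825 bases, against 4702 for Stxbp5-209, the main short one).

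SNARE disassembly needs the ATPase NSF and the adaptors that load it onto the complex. Nsf had 479 TPM in replicate 1 and 453 TPM in replicate 2. Napb, the brain form of the adaptor, had 128 and 119 TPM, and Napa, the form of most tissues, had 109 and 124 TPM. The order of the adaptors turned with the library. Napb was higher in replicate 1 and Napa in replicate 2, and in the second quantification Napa took 59.0% of the TPM of the pair in place of 48.5%. In counts Napa was lower in replicate 2 (4434 against 4804 reads). Transcripts of Napa annotated as retained introns, each under 1000 bases, took 27.8% of its TPM in replicate 1 and 42.1% in replicate 2. The coding transcript Napa-201 had 78.5 and 71.8 TPM in the first quantification. That was below the coding Napb-201, at 125 and 116 TPM, in both libraries. The largest of the retained-intron transcripts, Napa-206, had 11.6 TPM in replicate 1 and 18.9 TPM in replicate 2. Napa was thus higher in replicate 2 by TPM and lower by reads.

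The calcium sensor group takes in 8 synaptotagmins, the Doc2 proteins and rabphilin by family, whether or not each of them senses calcium. Syt1, the sensor of fast synchronous release in forebrain, had 403 TPM in replicate 1 and 363 TPM in replicate 2 and took 54.9% ± 1.37 of the TPM of the 8 synaptotagmins. Syt7, a slower sensor with high calcium affinity tied to asynchronous release and facilitation, had 121 ± 0.41 TPM, or 17.3% ± 0.91. Syt5 followed at 86.9 ± 1.44 TPM, Syt4 at 46.4 ± 3.78 TPM and Syt3 at 36.6 ± 0.30 TPM. Syt12 (11.0 ± 1.41 TPM) and Syt2 (9.54 ± 0.21 TPM), the fast sensor of hindbrain and of parvalbumin interneurons, were lower. Syt6 was the lowest of the group, at 2.83 and 3.52 TPM. Of the Doc2 genes, whose products bind calcium with high affinity, Doc2b had 38.7 ± 1.96 TPM and Doc2a 7.005 ± 0.13 TPM. Rph3a, the gene of the Rab3 effector rabphilin, had 80.8 ± 2.57 TPM.

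Rab3 GTPases ride on vesicles and recruit RIM and rabphilin. Rab3a led with 306 TPM in replicate 1 and 276 TPM in replicate 2, Rab3c had 72.4 ± 3.30 TPM, and Rab3b was lowest at 23.2 and 22.7 TPM. Rab3a took 75.3% ± 0.65 of the summed TPM of these 3 genes. Each library gave the same order, with gaps wider than the spread.

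The 13 active zone genes had a median level of 46.8 ± 0.79 TPM. Munc13 proteins open syntaxin and make vesicles ready for fusion. Unc13a (chr8:71624417-71671757, mm10) had 107 TPM in replicate 1 and 101 TPM in replicate 2 and was the most abundant active zone gene in the first quantification, its lower value of 101.4 TPM lying just above the higher value of Rims1, 101.2 TPM. The lead turned in the second quantification, where Rims1 had 183 and 174 TPM and Unc13a 173 and 160 TPM, and Erc2 was highest in replicate 2 at 184 TPM. Unc13b had 15.6 and 16.5 TPM, and Unc13c, the Munc13 of cerebellar granule neurons, was the lowest at 2.13 and 2.30 TPM. Unc13a took 85.1% ± 1.03 of Munc13 TPM. RIM proteins tether calcium channels and Munc13, and Rims1 had 99.0 ± 3.14 TPM, Rims2 34.8 ± 0.057 TPM and Rims3, which codes for a short RIM, 10.7 ± 0.41 TPM. The RIM-binding protein gene Rimbp2 had 46.8 ± 0.79 TPM.

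The giant scaffold genes Bsn (Bassoon) and Pclo (Piccolo) had 87.0 ± 0.74 and 45.2 ± 1.05 TPM, and their long RNAs drew 30852 and 17103 reads in replicate 1. Erc2, the ELKS gene of neurons, had 86.7 ± 2.45 TPM against 22.6 ± 0.11 TPM for the more widely used Erc1. The liprin-alpha genes Ppfia2 and Ppfia3, which link the scaffold to receptors and motors, had 53.9 ± 2.72 and 50.4 ± 1.33 TPM. Of related active zone genes outside the set, Ppp1r9b, the gene of spinophilin, which is also known from dendritic spines, had 363 ± 14.1 TPM and the scaffold gene Git1 109 ± 5.98 TPM.

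Unc13a has a cassette exon of 57 bases (chr8:71633439-71633495, minus strand, mm10, coding). It is shown because the 2 leading Unc13a transcripts part there.
Unc13a cassette exon: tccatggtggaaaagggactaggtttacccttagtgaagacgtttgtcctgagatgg
The transcript with the exon had 35.1 TPM in replicate 1 and 31.7 TPM in replicate 2, and that without it 34.9 and 32.6 TPM. The form with the exon thus took 50.1% and 49.3% by the first estimate, and 55.0% and 56.1% by the second. These transcripts also differ in length, 5654 against 10255 bases, so their share of TPM rests on more than reads over the exon. In reads of the first quantification the form with the exon took 35.5% and 34.7%.

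Membrane retrieval is led by dynamin, which cuts the neck of the endocytic pit. Dnm1 had 525 TPM in replicate 1 and 490 TPM in replicate 2. Synj1, the gene of the phosphatase that sheds clathrin coats, had 153 and 144 TPM, and Sh3gl2, which codes for endophilin A1, was the lowest at 129 and 115 TPM. Related endocytosis genes outside the set were led by the uncoating chaperone gene Hspa8 at 868 ± 106 TPM, the adaptor gene Ap2m1 at 288 ± 15.9 TPM and the clathrin heavy chain gene Cltc at 191 ± 3.42 TPM.

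Dnm1 also chooses between a pair of exons of 139 bases, which code for part of the stalk through which dynamin assembles. They are shown with capitals at the 39 bases that differ. The upstream exon lies at chr2:32334682-32334820 and the downstream exon at chr2:32333066-32333204, both coding and on the minus strand of mm10.
Dnm1 upstream exon: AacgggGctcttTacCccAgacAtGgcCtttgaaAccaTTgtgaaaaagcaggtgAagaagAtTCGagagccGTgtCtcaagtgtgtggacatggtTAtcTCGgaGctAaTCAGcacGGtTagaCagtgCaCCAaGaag
Dnm1 downstream exon: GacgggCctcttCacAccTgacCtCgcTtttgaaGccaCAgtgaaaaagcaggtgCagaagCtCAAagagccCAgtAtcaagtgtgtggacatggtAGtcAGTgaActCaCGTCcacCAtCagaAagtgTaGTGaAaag
Transcripts with the downstream exon took 73.8% and 70.1% of the TPM of both forms in the first quantification, and 62.3% and 62.0% by the second estimate. The downstream exon led throughout, and the gap between quantifications was wider than that between libraries. Synj1 gave opposite answers. Inclusion of a short exon near its 3′ end yields the form of neurons with the shorter coding end, which took 68.5% and 66.6% in the first quantification but 44.8% and 41.8% in the second. The largest transcript by mean was Synj1-202 in the first (51.4 and 24.0 TPM) and Synj1-203 in the second (118 and 103 TPM).

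**Figure D2:**
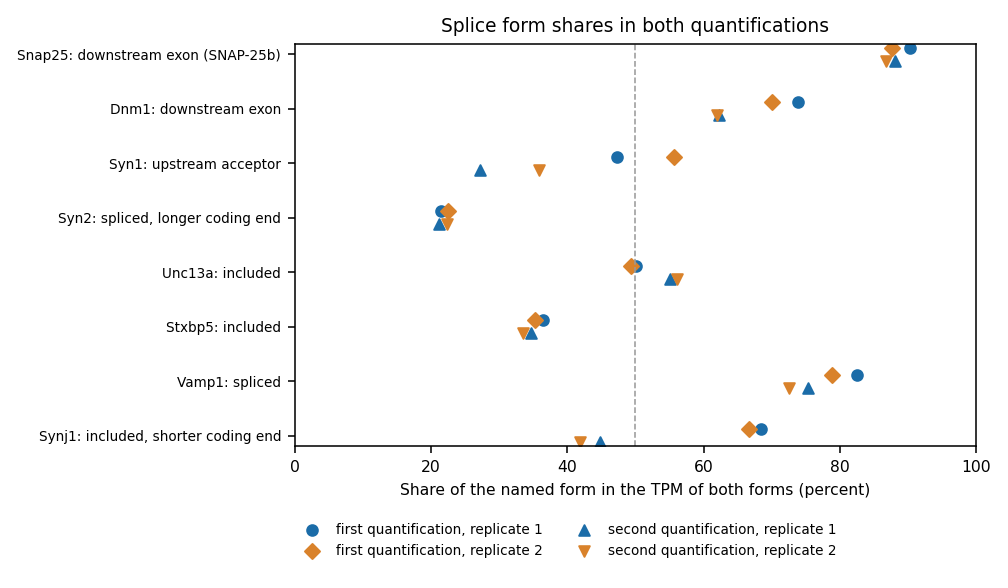
Share of the named splice form (x axis, percent) in the summed TPM of both forms of 8 genes, in both libraries and both quantifications. Snap25, Syn2 and Stxbp5 give nearly the same share in all 4 estimates, while Syn1 and Synj1 differ between the quantifications.

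Within most families a single paralog carried most of the RNA. Slc17a7, Vamp2, Syp, Unc13a and Doc2b each took over 80% of their family's TPM, and Erc2 took 79.3% ± 0.39. The synaptogyrins and RIMs were led less steeply, by Syngr1 at 69.2% ± 0.57 and Rims1 at 68.5% ± 0.85. Bsn took 65.8% ± 0.71 of the TPM of the giant scaffolds. Shares near even were found for Sv2a with Sv2b (53.0% ± 1.42 and 44.8% ± 1.71), Ppfia2 with Ppfia3 (51.6% ± 1.92 for Ppfia2), Stxbp5l with Stxbp5 (53.3% ± 0.69 for Stxbp5l) and Napb with Napa (51.5% ± 3.63 for Napb). In the second quantification Sv2b was above Sv2a in replicate 2 (49.3% against 48.5%), so their order also depends on the quantification. The share of Napa includes its retained-intron transcripts.

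**Figure D3:**
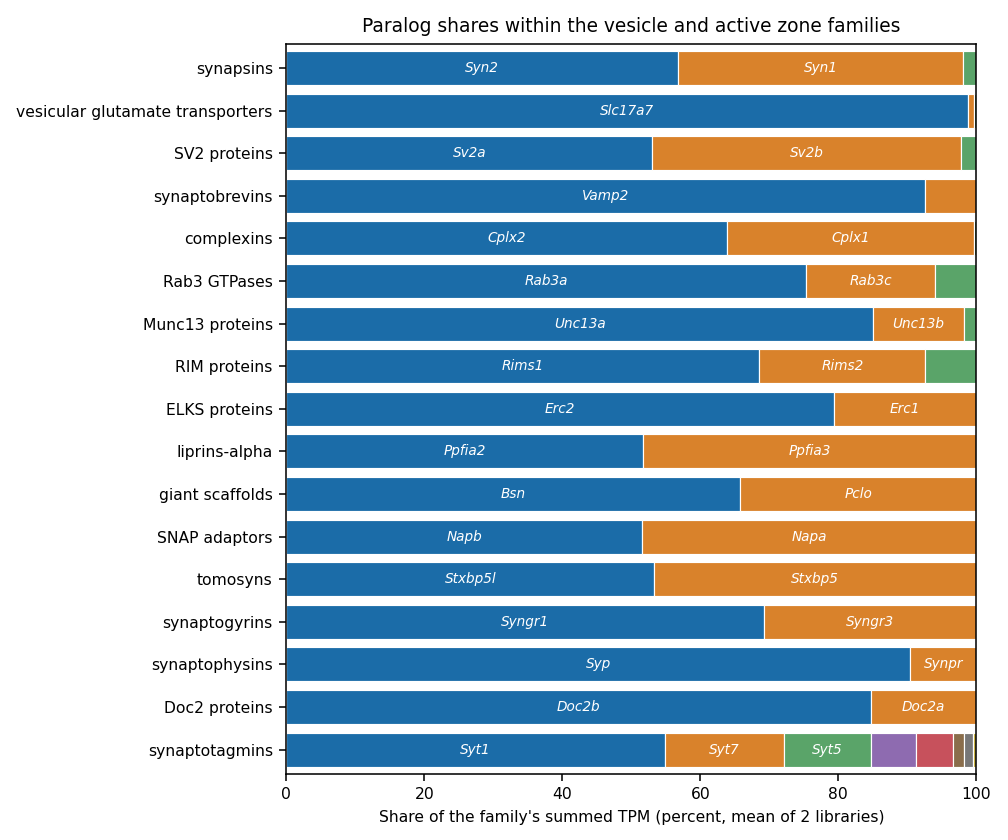
Share of each paralog in the summed TPM of its family (x axis, percent, mean of 2 libraries), for 17 families of the 56 genes. Paralogs outside the 56 are not counted. Segments under 8% carry no name. Slc17a7 fills 98.8% of its bar, while Ppfia2 with Ppfia3 and Napb with Napa divide theirs nearly evenly.

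Between the libraries, most of these genes had slightly fewer normalised counts in replicate 2. Log2 ratios of replicate 2 over replicate 1 were taken after TMM scaling for the 55 members whose counts averaged at least 100. Cplx3 fell under that minimum. In replicate 2, 45 of the 55 were lower and 10 higher, with a median log2 ratio of -0.07. That is 81.8% lower, against 55.5% of the 12651 genes that met the same minimum, whose median was -0.02. The ratios ran from -0.27 for Syt12 to 0.35 for Syt6. Exact binomial 95% intervals, which cover counting error only, lay below 0 for 32 genes and above 0 for 4 (Syn3, Syt6, Ppfia2 and Unc13b). Of all genes 18.3% had an interval below 0 and 11.4% above it. Intervals narrow as counts rise, and the median gene of the 55 had a mean count of 5647 against 805 over all genes. In bulk tissue fewer nerve cells and less RNA per cell cannot be told apart.

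The direction depended on the scaling. With the ERCC spike-ins as the reference the median of all genes moved from -0.02 to 0.25, and all 55 genes were higher in replicate 2, with a median of 0.19, below the all-gene value. A scaling shifts every gene by the same amount, so it leaves the gap between these medians as it was. By TMM, Syt6 alone of the 55 had over 25% more normalised counts in 1 library than in the other. It had 223 and 270 reads, and 1.27-fold more normalised counts in replicate 2. Of all genes 6.24% differed by that much, 4.43% higher and 1.8% lower in replicate 2. None of the 55 exceeded 2-fold, against 0.466% of all genes. For Cplx3, 29 and 73 reads gave a log2 ratio of 1.39, with an interval of 0.77 to 2.08, on few reads.

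Among the abundant genes the widest differences were those of Snap25, with 38458 reads in replicate 1 and 30818 in replicate 2 and a log2 ratio of -0.25, Sv2b at -0.25 and Sh3gl2 at -0.24. Syn1 (-0.18), Cplx1 (-0.18), Syt4 (-0.16) and Syt1 (-0.15) followed. All 5 SNARE genes, all 3 Rab3 genes, all 3 endocytosis genes and all 3 disassembly genes were lower in replicate 2 by TMM. Rab3b was close to 0 (-0.02) and was higher by total counts, and with spike-ins all of these genes were higher. The active zone genes were mixed. Of 13, 6 were higher and 7 lower, with a median of -0.02, the same to 2 decimals as that of all genes. Ppfia2 (0.10), Unc13b (0.12), Unc13c (0.11), Rims3 (0.08), Rims2 (0.01) and Bsn (0.01) were the 6 above 0. Rims2 and Bsn turned below 0 with DESeq2 size factors and with the second quantification's counts, leaving 4 of 13 above 0, and by total counts Ppfia3 was also above 0, making 7. Of the 42 genes in other roles, 38 were lower and 4 higher, with a median of -0.10. The 4 were Syn3 (0.21), Sv2c (0.03), Slc17a6 (0.01) and Syt6. Slc17a6 turned with DESeq2 size factors, and both Slc17a6 and Sv2c with the second quantification's counts. By total counts 33 of the 42 were lower and 9 higher. With 1 library on each side the difference between roles has no test.

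**Figure D4:**
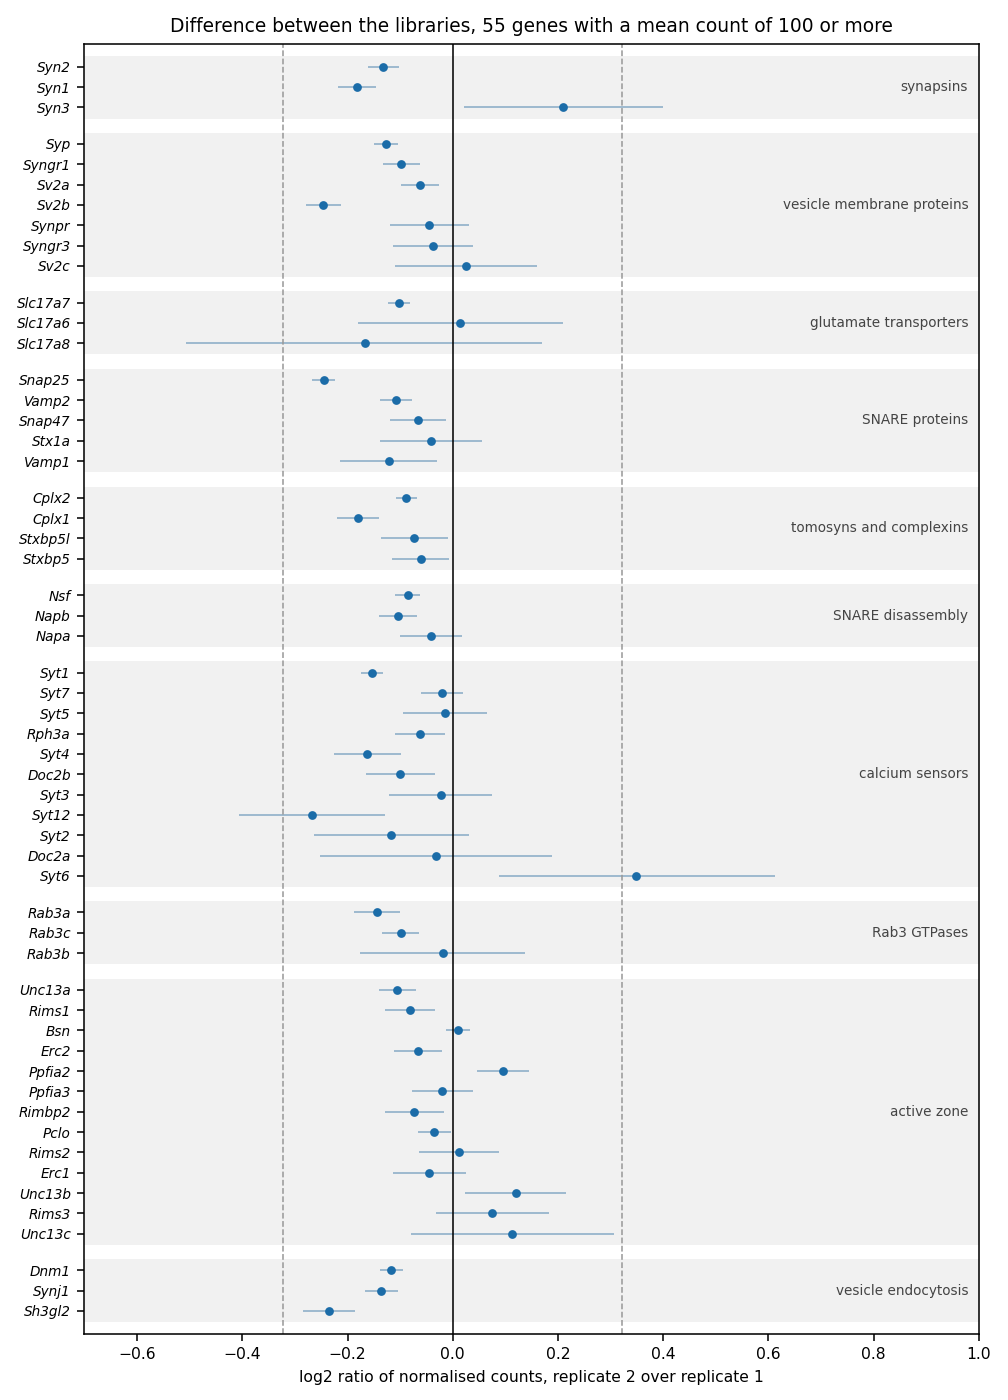
Log2 ratio of TMM-normalised counts, replicate 2 over replicate 1 (x axis), for the 55 members averaging at least 100 counts, grouped by role. Bars are exact 95% counting intervals and dashed lines mark a difference of 25%. Most points lie left of 0, the active zone genes straddle it, and Syt6 alone passes a dashed line.

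Some cell type marker lists moved between the libraries in the same comparison, while others stayed near the median of all genes. Pan-neuronal markers were lower in replicate 2 in 8 of 8 cases (median -0.15, summed 1568 and 1421 TPM), excitatory markers, which include Slc17a7, in 7 of 7 (-0.12) and interneuron markers in 12 of 12 (-0.13). Of the 7 CA3 markers 5 had enough reads, and all 5 were lower (-0.31). On fewer reads Iyd was lower (80 and 65 reads) and Coch higher (67 and 109 reads). Oligodendrocyte markers were lower in 8 of 8 (-0.35), and dentate granule markers higher in 6 of 7 (0.14). CA1 markers were lower in 4 of 6 (-0.15) and thalamus markers in 3 of 6 (-0.07). Mossy cell markers were lower in 2 of 3 (-0.12) and cortex markers in 5 of 5 (-0.12). Astrocyte markers were lower in 4 of 7 (-0.03) and microglia markers in 4 of 7 (-0.02). Endothelial markers were lower in 2 of 5 (0.0009) and oligodendrocyte precursor markers in 4 of 5 (-0.04). By TMM 55.5% of all genes were lower in replicate 2. The choroid plexus markers with enough reads were higher in 7 of 7 (4.28) and the meningeal ones in 5 of 5 (0.68). Sostdc1, Clic6, Slc4a5, Aqp1 and F5 met the read minimum only through replicate 2, so their direction was fixed by that minimum. Ttr (533 and 30135 reads) and Kl (413 and 1503 reads) met it in both libraries. With spike-ins the pan-neuronal and interneuron markers were all higher, and 5 of 7 excitatory markers were, while 4 of 5 CA3 and 8 of 8 oligodendrocyte markers were still lower. The part of these shifts in the differences of the vesicle genes was not tested. A further 77 presynaptic genes outside the set were counted in the same way. Of these, 73 were detected, and of the 72 with enough reads 49 were lower and 23 higher in replicate 2, with a median of -0.07. More than 25% apart were 2 of the 72, Syt10 (246 and 303 reads) and Syt9 (163 and 198 reads), both higher in replicate 2. Of all genes 6.24% were that far apart. The other synaptotagmins outside the set went both ways, with Syt17 (0.16) higher and Syt11 (-0.13) and Syt13 (-0.09) lower.

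**Figure D5:**
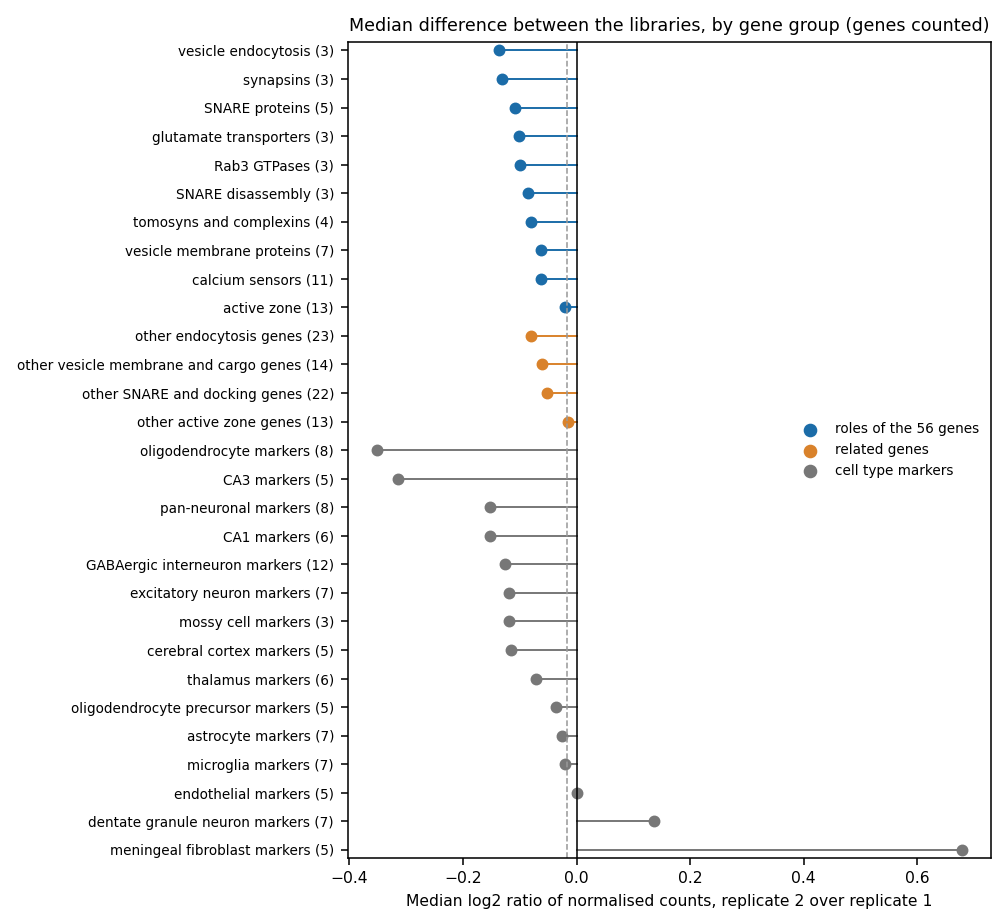
Median log2 ratio of normalised counts, replicate 2 over replicate 1 (x axis), for the 10 roles of the 56 genes, 4 lists of related genes and 15 marker lists, with the number of genes in brackets and the median of all genes as a dashed line. The choroid plexus list, at 4.28, is left out so that the others can be read. Most neuronal groups lie between -0.16 and 0, and both active zone groups lie close to the median of all genes.

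Gene counts hardly depended on the quantification. As a share of protein-coding counts, the second quantification lay between 0.920 and 1.08 times the first for the 55 genes, and none was over 1.5-fold apart, against 1.91% of 11846 protein-coding genes. TPM, which also weighs how reads are divided among transcripts of different length, depended on it more. Its scale differs too. Protein-coding genes held 43.9% and 42.4% of TPM in the first quantification and 78.3% and 77.6% in the second. TPM of single transcripts are given as deposited, so part of their gap between the quantifications is one of scale. With both scaled to protein-coding genes, Rph3a and Snap47 were 1.495-fold and 1.492-fold as high in the second, and Syt2 was at 0.550 of the first. For Syt2 the first quantification placed 4.54 TPM on Syt2-203, a transcript of 383 bases with 28.1 and 31.0 reads, and the second placed 0 and 0.109 TPM there. For Syp the first placed 288 TPM on Syp-206, of 433 bases, where the second placed 0, and the second instead gave 459 and 492 TPM to Syp-202, of 494 bases. Transcripts under 1000 bases took over 20% of TPM for 9 of the 56 genes by the first estimate and for 13 by the second, with 6 in both.

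The major transcript, the one with the highest mean TPM, was compared between the quantifications for the 53 genes with at least 2 annotated transcripts. Cplx2, Syt4 and Doc2b have 1 each. The median gene gave its major transcript 77.0% of its TPM, against 61.9% over 12168 genes. The share was over 80% for 23 genes, among them Slc17a7 (95.1%), Vamp2 (93.9%) and Snap25 (88.6%), and under 50% for 12, among them Rims1 (35.7%) and Unc13b (32.8%). The quantifications named the same major transcript for 42 genes and different ones for 11, or 20.8%, against 25.0% of all genes tested. The 11 were Erc2, Ppfia3, Rims2, Rph3a, Sv2b, Syn1, Syn2, Synj1, Syt2, Syt6 and Unc13a.

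Some of these pairs leave the coding sequence unchanged. The paired transcripts of Syn2 (203 and 202) and of Sv2b (201 and 202) differ in their untranslated ends alone. For Ppfia3 the first quantification gave 40.0 TPM to Ppfia3-201, and the second gave most to Ppfia3-207 (24.6 and 28.9 TPM). For Rph3a the first gave 70.8 TPM to Rph3a-201, while the second gave 80.7 and 66.5 TPM to Rph3a-202, a transcript of 750 bases. Erc2 (208 against 210) and Rims2 (204 against 201) spread their RNA over many forms, with 23.7% and 25.6% in the largest of the first quantification. Syt6, with few reads, had 0.945 TPM on its largest. In the first quantification Erc1 was the only gene of the 53 whose major transcript is not annotated as protein-coding. Erc1-206, annotated as a target of nonsense-mediated decay, took 41.0% of its TPM there, and 31.0% by the other estimate.

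The 56 genes lie on 19 chromosomes, 8 of them on chromosome 7. Within 1 Mb of each other are Syt3, Slc17a7 and Ppfia3 on chromosome 7, with 163 kb between Slc17a7 and Ppfia3, and Rab3a with Unc13a on chromosome 8. RefSeq promoter windows (GRCm38.p6, 250 bases before to 50 after the start) matched 45 of the 56 genes, with 60 windows in all. Their median GC content was 62.7% and they held a median of 18 CpG pairs, against 52.7% and 7 over 32851 windows of all genes. The letters TATAAA, on either strand, stood in 5.0% of these windows (Rab3b and Sv2b) and in 13.6% of all. The letters TGACGTCA, the full site of cyclic AMP response factors, stood in 5.0% (Napa, Sh3gl2 and Syn1) and in 1.79% of all. TTCAGCACC, the first part of the site of the neuronal repressor REST, stood in 5.0% (Ppfia3, Syn1 and Unc13a) and in 0.371% of all. These are matches of letters and say nothing of binding.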

How the data were processed

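RNA levels were taken from 3 tables per library, on build mm10 with GENCODE release M21, per the notes deposited beside the files. The gene table and the first transcript table hold expected counts (reads divided among transcripts by estimation) and TPM as the authors deposited them, per the file headers. For each transcript the authors also deposited the percent of its gene's TPM, and bounds on TPM that were not used. A second estimate, with estimated counts and TPM per transcript, was deposited in the third table. Column names are those RSEM and kallisto write. Versions of the software, and whether strand was used, were not given in the sources used here, so reads of overlapping antisense genes cannot be told apart.

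The 56 members, their roles and the other lists were chosen with earlier results of these data known. The genes named with both libraries' values are the highest and lowest of each role, those over 25% apart, those under 1 TPM and those whose major transcript differs between the quantifications, with the top 3 of each related list, of which some are not reported here. Further members are given with both values, chosen after their values were seen. Expected counts were rounded and scaled by TMM in edgeR 4.0.16 (R 4.3.3), and log2 ratios used CPM with a prior count of 0.5. Spike-in scaling rested on 41 spike-ins averaging at least 10 counts. The ratio script was tested on simulated data. The 86 genes without a transcript in the second quantification, 96 spike-in entries and 26248 numbered entries (4 and 5 counts) stayed out. Splice forms were set by junctions private to 1 form, with TPM summed over transcripts. Sequences come from GENCODE M21 transcripts. With 1 group of 2 libraries no test was run. Alternatives were DESeq2 1.42.0, total-count and spike-in scaling, deposited TPM, the second quantification, other minimums and each replicate alone. Python 3.11.15 with pandas 2.3.3 and scipy 1.17.1 did the rest.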

Additional observations from a re-analysis of the deposited data

How the results depend on the processing

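Of 48 alternative values for the summary results, 36 moved by less than the replicate spread (for counts, stayed within 1.5 times) and 12 did not. The median TPM of the 56 genes was 113 in the second quantification and 177 with TPM rescaled to protein-coding genes, where the scale itself differs, and 74.5 to 78.0 without either replicate. The median log2 ratio moved to 0.19 with ERCC spike-ins. The count of genes over 25% apart was 6 with spike-ins, where the median log2 ratio of all genes was itself 0.25. It was 0 with deposited TPM at either pseudocount, 0 with second quantification counts, 2 with no minimum count and 0 at a mean count of 500 or more. The count over 2-fold was 1 with no minimum count, which is Cplx3. The median major transcript share was 65.9% in the second quantification, and 75.0 to 78.9% without either replicate. With TPM in place of counts, 1 gene (Syt2) was over 1.5-fold apart between the quantifications. All 56 genes stayed detected without either replicate, and 51 reached 5 TPM. The same major transcript was named for 43 to 46 genes without either replicate. DESeq2 size factors gave 48 genes lower and 7 higher in replicate 2, total counts 39 and 16, and the second quantification 49 and 6. The median log2 ratio of all genes moved too, to -0.03, 0.02 and -0.03 in these settings. Shares of all genes were counted with TMM only, so these counts have no such share beside them.

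Depth limits the lowest genes, such as Cplx3 with 29 and 73 reads and Slc17a8 with 162 and 137. Shares of splice forms are estimates from reads divided among transcripts, and no junction reads were used here. The deposited values rest on mm10 while 1 parent strain was CAST/EiJ, and the effect of that was not tested. No alternative planned was left out.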
